A study of Homo sapiens with 18 samples.

Results

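The genes described here are 10 transcripts linked to the stress factor NRF2: HMOX1, NQO1, GCLM, GCLC, GSR, TXN, TXNRD1, SRXN1, PRDX1 and MAFG. They were chosen by gene symbol from 18334 genes measured on 2-colour Agilent arrays, on which 24 of the 31332 features used stand for them. HMOX1 has 10 of these features, GCLM, GCLC, GSR, TXN and MAFG have 2 each, and NQO1, TXNRD1, SRXN1 and PRDX1 have 1 each. All 10 were tested and no filter on low values was applied. RNA came from the established cell line K562 (labelled DNSZ K562), derived from a human chronic myelogenous leukaemia and thawed 10 days before use. Heteronemin, a sesterterpenoid of marine sponges, was added at 6 µM at 0 h, with DMSO as its control. TNFalpha, an inflammatory cytokine, was added at 10 ng/mL at 2 h, with water as its control, and all cells were harvested at 6 h. Each array set 2 RNA samples of 700 ng against each other, and there were 3 comparisons: TNFalpha against untreated cells, heteronemin against untreated cells, and cells given both agents (cotreated) against cells given TNFalpha. Every comparison had 3 biological replicates, each hybridised on 2 arrays with the dyes exchanged, so n = 3.

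NRF2, encoded by NFE2L2, is a transcription factor that the adaptor KEAP1 holds for degradation through the ubiquitin ligase of CUL3 and RBX1. Electrophiles and oxidants modify KEAP1, and NRF2 then enters the nucleus, pairs with a small MAF protein such as MAFG and binds antioxidant response elements. Its targets make glutathione, reduce thioredoxin, detoxify quinones and break down heme. BACH1, a repressor that heme inactivates, pairs with the same small MAF proteins on many of these elements, and HMOX1 is its best known target. K562 cells carry an erythroid programme, in which heme is both made and broken down.

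All values are log2 ratios of treated over control, so that 1 is a doubling, and a mean is given ± the SD over the 3 replicates. A ratio gives no level, so the defining markers of K562 cells could not be checked, and the arrays' intensities were not used here. Fewer cells of a kind and less RNA per cell cannot be told apart in such bulk samples. Replicate 1 stood apart in both heteronemin comparisons: its SD over all genes was 0.329 under heteronemin, against 0.195 and 0.164 in replicates 2 and 3, and 0.384 in cotreated cells, against 0.215 and 0.173. Under TNFalpha the SDs lay between 0.134 and 0.141. Under heteronemin and in cotreated cells the means of all 10 genes are therefore given with and without it. Genes were called at an adjusted p under 0.05 in limma, a linear model fitted across all 18334 genes with a spread pooled over the comparisons.

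**Figure D1:**
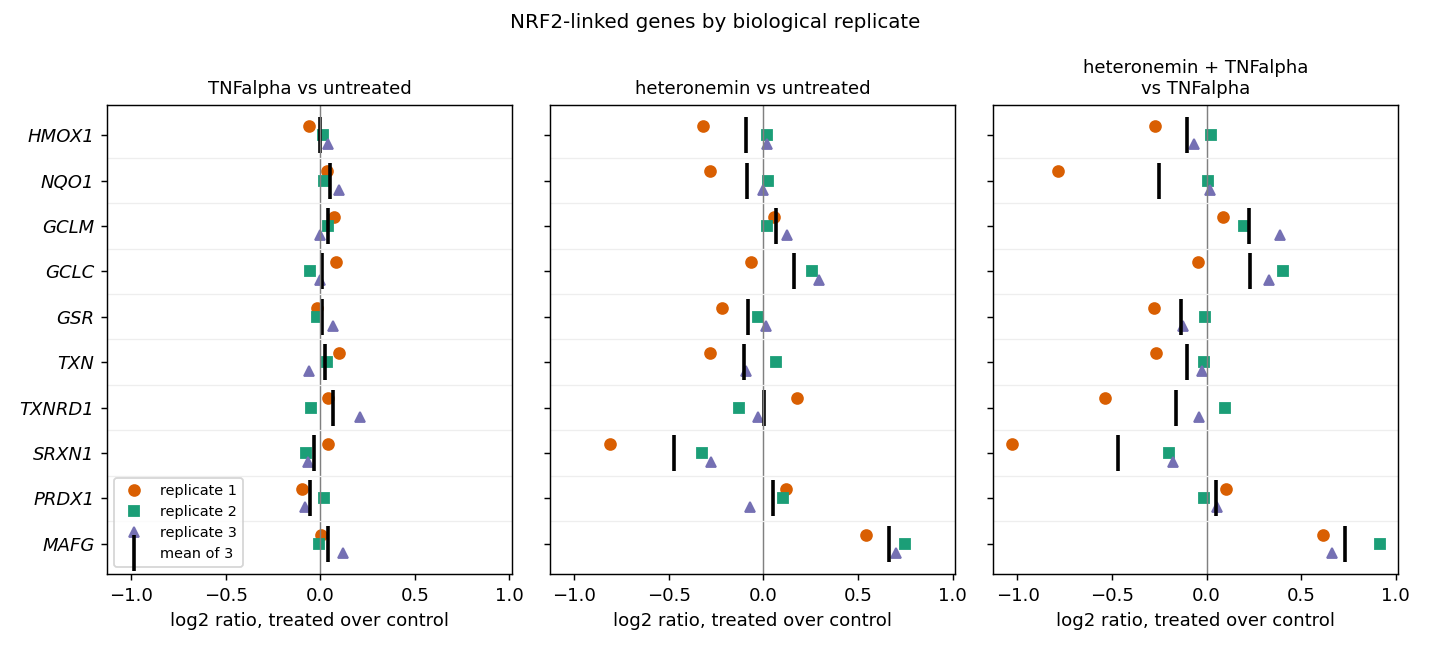
Log2 ratio (x axis) of the 10 genes (rows) in biological replicates 1 to 3, each the mean of 2 dye-exchanged arrays, with the mean of the 3 as a vertical bar. MAFG lies between 0.54 and 0.92 in all replicates of both heteronemin comparisons, and NQO1 and SRXN1 in cotreated cells reach −0.79 and −1.03 in replicate 1.

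TNFalpha left the 10 genes within a narrow band. Their means lay between −0.053, for the peroxide-removing enzyme PRDX1, and 0.066, for the thioredoxin reductase TXNRD1, with a median of 0.018 against −0.00053 for all genes. None of the 10 was called by limma (adjusted p = 1 each), and none had an unadjusted p under 0.05, the smallest being 0.323; of all genes 0% were called in this comparison. The heme oxygenase gene HMOX1 was at −0.060, 0.014 and 0.042 in replicates 1 to 3. The groups of values lay on both sides of 0 for 9 genes, and NQO1, at 0.035, 0.018 and 0.097, was the 1 gene above 0 in every replicate. All 10 of the 95% intervals lay within 1 of 0, and that of HMOX1 ran from −0.18 to 0.18.

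Under heteronemin MAFG, the small MAF partner of NRF2, rose, and no other of the 10 genes passed the test. MAFG was at 0.54, 0.75 and 0.70 in replicates 1 to 3 of heteronemin against untreated cells, all above its highest TNFalpha value of 0.12. The mean was 0.66 ± 0.11, a fold of 1.59, with a 95% interval of the log2 ratio of 0.51 to 0.82 (adjusted p = 0.00186, limma). In cotreated cells it was at 0.62, 0.92 and 0.66, again high in every replicate. That mean was 0.73 ± 0.16, a fold of 1.66, with an interval of 0.58 to 0.88 (adjusted p = 0.00116). The ratio was above 0 on 6 of 6 arrays in both comparisons, and both features of the gene gave it, with 0.56 and 0.77 under heteronemin and 0.67 and 0.79 in cotreated cells. Called genes thus made up 1 of 10 higher and 0 of 10 lower in both. Of all genes 2.29% were called higher and 2.58% lower under heteronemin, and 3.39% and 3.15% in cotreated cells. Only 0.889% and 0.764% of all genes had a larger absolute mean than MAFG in these comparisons.

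The MAFG call was lost in some fits. Fitted alone, the comparisons gave adjusted p = 0.0976 under heteronemin and 0.154 in cotreated cells (limma), and a trended and robust prior gave 0.0616 and 0.0441. Leaving out a replicate in the comparison itself kept the call: the adjusted p was 0.00671, 0.0286 and 0.0165 under heteronemin without replicates 1 to 3 in turn, and 0.00277, 0.0109 and 0.00690 in cotreated cells. Leaving out replicate 1 in all comparisons gave means of 0.73 and 0.79 (adjusted p = 0.000816 and 0.000423). Leaving out replicate 2 in all gave 0.62 and 0.64 (adjusted p = 0.132 and 0.119), and leaving out replicate 3 in all gave 0.65 and 0.77 (adjusted p = 0.101 and 0.0665). An exact sign-flip permutation test over 3 values cannot go below p = 0.25, which is what it gave.

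The 2 subunits of glutamate-cysteine ligase, the rate-limiting enzyme of glutathione synthesis, had positive means in both heteronemin comparisons, and neither passed with all replicates. GCLC, the catalytic subunit, was at −0.064, 0.26 and 0.30 in replicates 1 to 3 under heteronemin, with replicate 1 below 0 and the others above. Its mean was 0.16 ± 0.20 (adjusted p = 0.429, limma). In cotreated cells it was at −0.046, 0.40 and 0.33, with the same replicate low, and a mean of 0.23 ± 0.24 (adjusted p = 0.208). GCLM, the modifier subunit, was at 0.057, 0.018 and 0.13 under heteronemin, close to its TNFalpha values of 0.074, 0.040 and −0.00089. The GCLM mean under heteronemin was 0.067 ± 0.055 (adjusted p = 0.590, limma). In cotreated cells GCLM was at 0.085, 0.20 and 0.39, above 0 in every replicate. This mean of 0.22 ± 0.15, a fold of 1.17 with an interval of 1.07 to 1.28, came closest to the threshold among the genes not called (adjusted p = 0.0554). The 2 GCLM features differed: under heteronemin one was at 0.20 and the other at −0.065, and in cotreated cells they were at 0.28 and 0.17. In cotreated cells the first was at 0.12, 0.41 and 0.31 in replicates 1 to 3, and the second at 0.052, −0.0063 and 0.46. That last value came from 1 array, with 0.066 in Cy5 and 0.86 in Cy3, and it enters the GCLM mean with and without replicate 1. GSR, which reduces oxidised glutathione, was at −0.079 ± 0.13 under heteronemin and −0.14 ± 0.13 in cotreated cells (adjusted p = 0.560 and 0.256). Its replicate 1 was lowest in both, at −0.22 and −0.28, and without it the means were −0.0083 and −0.067. The 2 GSR features were at −0.19 and 0.036 under heteronemin.

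Within the thioredoxin system, SRXN1 had the lowest means, and the others stayed near 0. SRXN1, which encodes sulfiredoxin, the enzyme that repairs overoxidised peroxiredoxins, was at −0.81, −0.33 and −0.28 in replicates 1 to 3 under heteronemin. In cotreated cells it was at −1.03, −0.20 and −0.18. All values were below 0, on 12 of 12 arrays, and replicate 1 was far below the others. The means were −0.47 ± 0.30 (95% interval −0.84 to −0.10) and −0.47 ± 0.49 (−0.84 to −0.10), which did not pass (adjusted p = 0.158 and 0.136, limma). Under TNFalpha SRXN1 lay between −0.077 and 0.041.

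TXN, thioredoxin itself, was at −0.28, 0.068 and −0.094 in replicates 1 to 3 under heteronemin and at −0.26, −0.013 and −0.026 in cotreated cells, with replicate 1 lowest in both. The means of −0.10 ± 0.17 and −0.10 ± 0.14 (adjusted p = 0.527 and 0.480) were −0.013 and −0.020 without that replicate. PRDX1, peroxiredoxin 1, was at 0.050 ± 0.10 and 0.048 ± 0.060 (adjusted p = 0.654 and 0.623), and at 0.017 and 0.019 without replicate 1. TXNRD1, which reduces thioredoxin with NADPH, gave 0.18, −0.13 and −0.030 in replicates 1 to 3 under heteronemin, and −0.54, 0.10 and −0.038 in cotreated cells. Its replicate 1 thus lay above the others in one comparison and below them in the other. The means were 0.0049 ± 0.16 and −0.16 ± 0.34 (adjusted p = 0.987 and 0.468), and −0.080 and 0.031 without replicate 1. Under heteronemin the 2 arrays of every replicate had opposite signs.

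HMOX1 and NQO1, the enzymes most often used to read out NRF2, had means slightly below 0 in both heteronemin comparisons. HMOX1, the inducible heme oxygenase, was at −0.32, 0.020 and 0.021 in replicates 1 to 3 under heteronemin, and at −0.27, 0.024 and −0.065 in cotreated cells. Replicate 1 was low in both and the other values were close to 0. The mean under heteronemin was −0.093 ± 0.20, with a 95% interval of 0.829 to 1.06 for the ratio of treated over control (adjusted p = 0.586, limma). In cotreated cells it was −0.10 ± 0.15, with an interval of 0.822 to 1.05 (adjusted p = 0.487). Fitted alone, the intervals of the log2 ratio were −0.33 to 0.14 and −0.32 to 0.11, so a doubling of the transcript lay outside them all.

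The 10 HMOX1 features could be set against each other. Their means over the replicates ran from −0.19 to 0.090 under heteronemin and from −0.34 to 0.039 in cotreated cells. In replicate 1 of cotreated cells single features lay between −0.87 and 0.046, in replicate 2 between −0.082 and 0.087, and in replicate 3 between −0.48 and 0.13. The 2 arrays of a replicate also differed, and with 1 array for each orientation dye and array cannot be told apart. In replicate 2 HMOX1 was at −0.094 with the treated sample in Cy5 and 0.13 in Cy3 under heteronemin. It was at −0.096 and 0.14 in cotreated cells, and at −0.11 and 0.14 under TNFalpha. In replicate 1 of both heteronemin comparisons the order was turned, with −0.16 and −0.48, and −0.072 and −0.47. The features did not share this order in cotreated cells: in replicate 1 they ran from −0.36 to 1.45 in Cy5 and from −1.49 to 0.27 in Cy3. A single feature was at 1.45 and −1.42, and another kept the order of replicate 2, at −0.36 and 0.21.

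NQO1, a quinone reductase, was at −0.28, 0.025 and −0.0011 in replicates 1 to 3 under heteronemin, and at −0.79, 0.0097 and 0.020 in cotreated cells. Again only replicate 1 was away from 0. Its means were −0.086 ± 0.17 (adjusted p = 0.790) and −0.25 ± 0.46 (adjusted p = 0.352, limma). The value of −0.79 came from 1 array: NQO1 was at −0.13 with the treated sample in Cy5 and at −1.45 in Cy3. Without replicate 1 its means were 0.012 and 0.015.

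**Figure D2:**
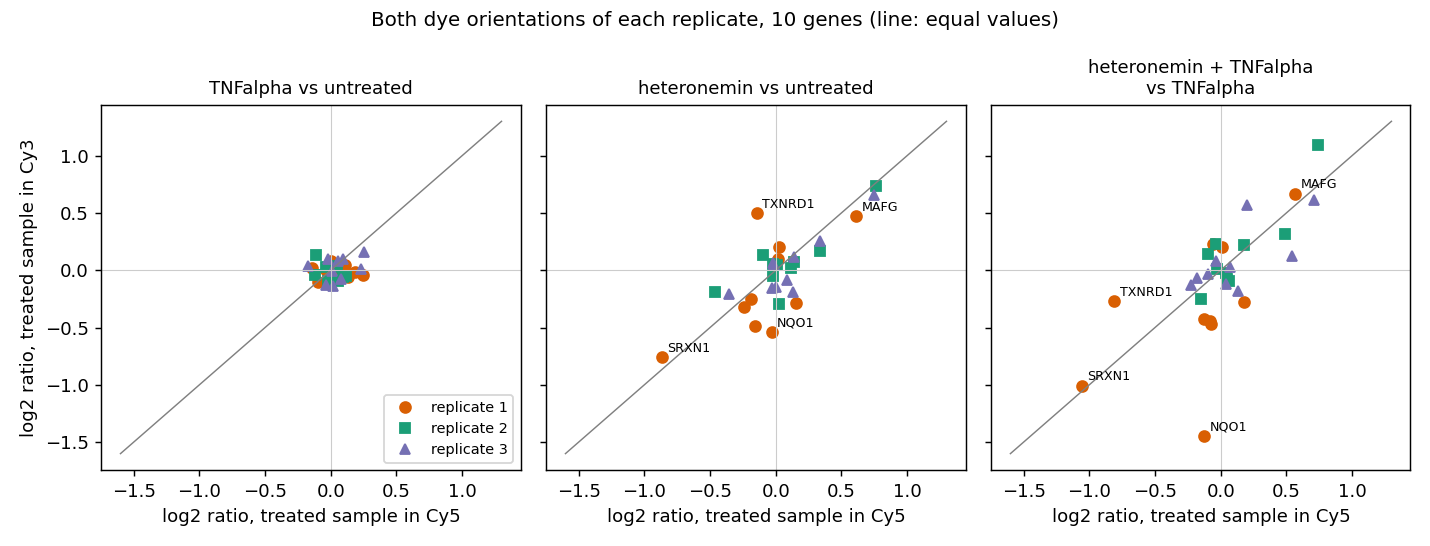
Log2 ratio of each gene and replicate with the treated sample in Cy5 (x axis) against that with the treated sample in Cy3 (y axis), and the line of equal values; MAFG and SRXN1 are named in replicate 1, and points that differ by more than 0.5 are named in both heteronemin panels. In replicate 1 MAFG and SRXN1 lie near the line, while NQO1 and TXNRD1 lie off it.

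Taken over the 10 genes, the median was −0.037 under heteronemin and −0.10 in cotreated cells, against 0.0083 and 0.0081 for all genes. By replicate it was −0.14, 0.023 and 0.0068 under heteronemin and −0.27, 0.017 and −0.0030 in cotreated cells, so replicate 1 alone was below −0.1. In both comparisons 8 of the 10 means lay within 0.3 of 0, the exceptions being MAFG and SRXN1. All 95% intervals lay within 1 of 0 in the pooled fit. With each comparison fitted alone they did so for 10 of 10 genes under heteronemin and 9 of 10 in cotreated cells, where that of SRXN1 passed −1. Fitted alone in cotreated cells, the intervals of SRXN1 (−1.002 to 0.064) and GCLC (−0.063 to 0.52) included 0. That of SRXN1 under heteronemin (−0.80 to −0.14) did not.

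Without replicate 1 in all comparisons, further genes passed limma, with n = 2. Under heteronemin GCLC was then at 0.28 (adjusted p = 0.00552) and SRXN1 at −0.30 (adjusted p = 0.00289), while GCLM, at 0.072, did not pass. In cotreated cells GCLC was at 0.37 (adjusted p = 0.00140), GCLM at 0.29 (adjusted p = 0.00972) and SRXN1 at −0.19 (adjusted p = 0.0130). With MAFG that made 2 higher and 1 lower of the 10 under heteronemin, where 7.17% of all genes were called higher and 6.69% lower, and 3 higher and 1 lower in cotreated cells, where these shares were 10.4% and 8.18%. HMOX1 was at 0.021 and −0.021 (adjusted p = 0.823 and 0.802). With replicate 1 left out of heteronemin against untreated cells only, 1 of the 10 genes was called, MAFG, and 378 of all genes. GCLC and SRXN1 thus did not pass under heteronemin in that fit. Without replicate 2 or 3 in all comparisons 0 of the 10 genes were called, and 2 and 20 of all genes under heteronemin and 2 and 8 in cotreated cells.

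**Figure D3:**
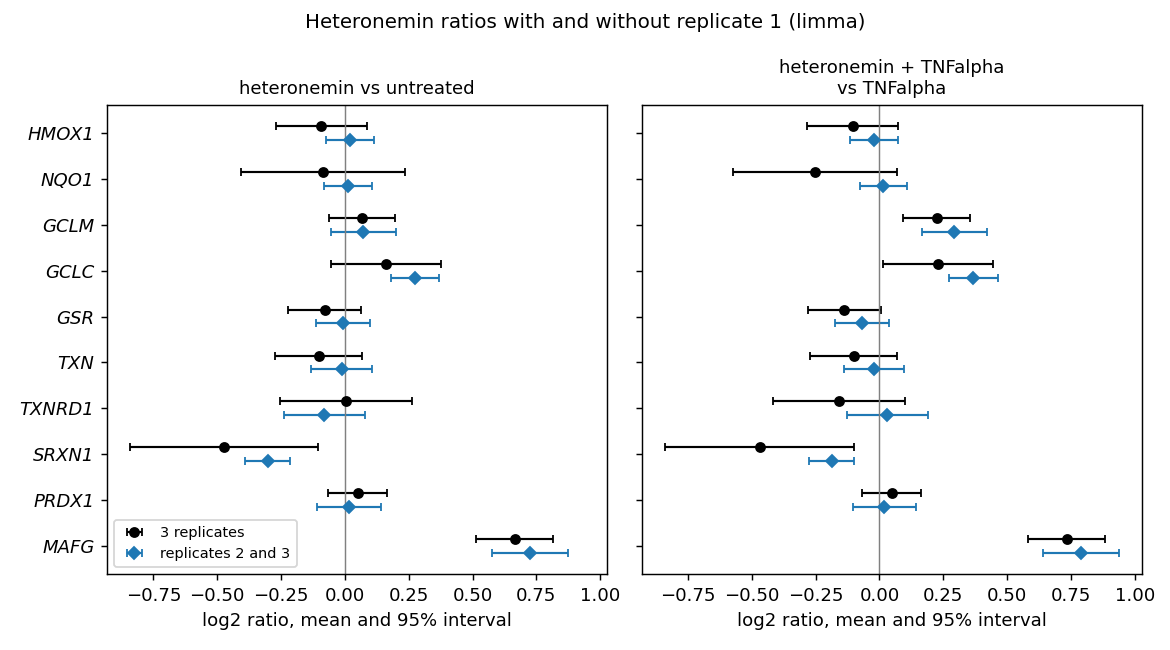
Mean log2 ratio and 95% interval of each gene from limma with 3 replicates (circles) and with replicates 2 and 3 (diamonds) in both heteronemin comparisons. Without replicate 1 the intervals of GCLC and SRXN1 narrow, those of HMOX1 and NQO1 narrow around 0, and that of MAFG lies above 0.5 in both fits. The interval of GCLC under heteronemin lies off 0 only without replicate 1. Those of SRXN1, and of GCLC in cotreated cells, lie off 0 in both fits, which pool the spread over the comparisons. With cotreated cells fitted alone (not shown), the intervals of SRXN1 and GCLC include 0.

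The effect of heteronemin on these genes was also compared between cells with and without TNFalpha. The difference, cotreated against TNFalpha minus heteronemin against untreated, lay between −0.17 for NQO1 and 0.16 for GCLM. For GCLM it was 0.028, 0.18 and 0.26 between same-numbered replicates 1 to 3, positive in each, with a 95% interval of −0.028 to 0.34. Whether these numbers pair the replicates is not settled. For MAFG it was 0.068, with an interval of −0.15 to 0.28. None of the 10 differences passed (adjusted p = 1.00 each, limma), none had an unadjusted p under 0.05, and of all genes 0% were called. The smallest unadjusted p was 0.0876, that of GCLM.

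Other genes of the pathway were followed in 7 lists, whose counts are to be read beside the shares of all genes. Over all genes the shares called higher and lower were 2.29% and 2.58% under heteronemin, and 3.39% and 3.15% in cotreated cells. Without replicate 1 these shares were 7.17% and 6.69% under heteronemin, and 10.4% and 8.18% in cotreated cells. Among 15 measured regulators of NRF2, 0 were called higher and 1 lower under heteronemin, and 0 higher and 3 lower in cotreated cells. RBX1, the RING subunit of the ligase that degrades NRF2, fell in both, by 0.42 ± 0.11 and 0.37 ± 0.066 (adjusted p = 0.00578 and 0.00750, limma). CUL3, the scaffold of that ligase, was at −0.25 ± 0.10 under heteronemin (adjusted p = 0.105) and fell by 0.36 ± 0.17 in cotreated cells (adjusted p = 0.0253). PGAM5, a mitochondrial phosphatase that binds KEAP1, was at −0.15 ± 0.10 (adjusted p = 0.190) and fell by 0.31 ± 0.084 (adjusted p = 0.0159).

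NFE2L2, the NRF2 gene, was at −0.25, 0.16 and 0.029 in replicates 1 to 3 under heteronemin and at −0.24, 0.25 and 0.34 in cotreated cells, with replicate 1 below the others. Its means of −0.020 ± 0.21 and 0.11 ± 0.31 did not pass (adjusted p = 0.949 and 0.599). KEAP1 was at 0.16 ± 0.20 and −0.039 ± 0.11 (adjusted p = 0.347 and 0.804). The repressor gene BACH1 was at 0.0060, 0.68 and 0.69 in replicates 1 to 3 under heteronemin and at 0.065, 0.95 and 0.75 in cotreated cells. Here replicate 1 was near 0 and the others were high, and the means of 0.46 ± 0.39 and 0.59 ± 0.47 did not pass (adjusted p = 0.212 and 0.0890). Without replicate 1 they were 0.68 and 0.85 (adjusted p = 0.000538 and 0.000188), and of the 15 regulators 3 were called higher and 3 lower under heteronemin, and 5 higher and 3 lower in cotreated cells.

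Of 23 measured genes of glutathione synthesis, import and use, 2 were called higher and 0 lower in both heteronemin comparisons. CHAC1, which degrades glutathione, was at 1.11, 1.69 and 1.41 in replicates 1 to 3 under heteronemin and at 1.03, 1.61 and 1.35 in cotreated cells. All these values were above the highest of MAFG. SLC7A11, which imports cystine for glutathione synthesis, rose by 0.69 ± 0.34 and 0.72 ± 0.27 (adjusted p = 0.0198 and 0.0133, limma). The medians of the list, 0.0028 and 0.025, were near those of all genes, and without replicate 1 the counts were 3 higher and 4 lower, and 3 higher and 5 lower.

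Among 16 measured genes of the thioredoxin and peroxiredoxin system, 1 was called higher and 1 lower in both. SESN2, a stress-induced sestrin, was at 1.62, 1.67 and 1.15 in replicates 1 to 3 under heteronemin and at 1.43, 1.59 and 1.08 in cotreated cells, high in each. TXNDC17, a thioredoxin-related protein, fell by 0.34 ± 0.15 and 0.27 ± 0.13 (adjusted p = 0.0235 and 0.0447, limma). Without replicate 1, 2 were called higher and 2 lower under heteronemin, and 1 and 2 in cotreated cells.

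Of 14 measured genes of heme and iron, 0 were called higher in either comparison, and 3 were lower under heteronemin and 2 in cotreated cells. HMOX2, the constitutive heme oxygenase, fell by 0.33 ± 0.10 and 0.41 ± 0.071 (adjusted p = 0.0213 and 0.00708, limma). FLVCR1, a heme exporter, fell by 0.55 ± 0.17 and 0.42 ± 0.21 (adjusted p = 0.0149 and 0.0348). SLC40A1, the iron exporter ferroportin, fell by 0.29 ± 0.075 under heteronemin (adjusted p = 0.0252) and was at −0.13 ± 0.043 in cotreated cells, which did not pass. Without replicate 1, 1 was called higher and 3 lower, and 2 higher and 2 lower.

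Of 14 quinone and xenobiotic enzymes, NQO2, a relative of NQO1, was at −0.17 ± 0.072 under heteronemin (adjusted p = 0.0934) and fell by 0.31 ± 0.077 in cotreated cells (adjusted p = 0.00993, limma); the other 13 were not called in either. Neither the 5 genes of NADPH supply nor the 5 superoxide and peroxide enzymes held a called gene. Under TNFalpha 0 genes of the 7 lists were called. Without replicate 2 in all comparisons none of the called list genes passed, and without replicate 3 SESN2 alone did (adjusted p = 0.0304 and 0.0231). Fitted alone, each heteronemin comparison had 0 called genes among all 18334, so every list call was lost there. With a trended and robust prior 0 genes were called under heteronemin and 276 in cotreated cells.

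**Figure D4:**
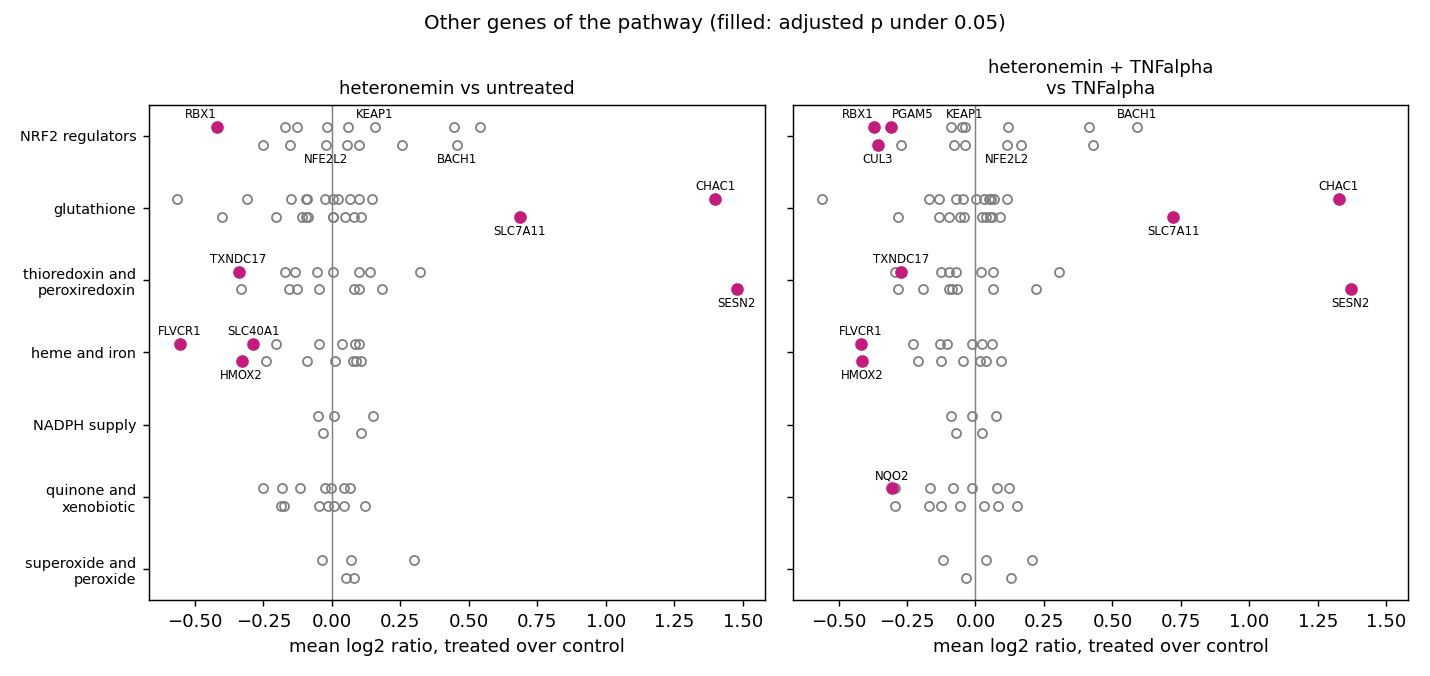
Mean log2 ratio (x axis) of the other genes of the pathway in 7 lists (rows) for both heteronemin comparisons, with filled points for genes called by limma. CHAC1, SESN2 and SLC7A11 lie far to the right, RBX1, HMOX2 and FLVCR1 are filled below 0 in both panels, and most points are open and near 0.

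The promoters of the members were read to place the antioxidant response element beside these values. RefSeq windows of GRCh38.p14, from 250 bases before to 50 after the annotated start, were read for 7 of the 10 genes. TXNRD1 had 2 windows. No window was read for HMOX1, GSR and PRDX1, so whether their promoters hold the element was not tested. The core searched was TGACNNNGC, or GCNNNGTCA on the other strand, which 13.35% of all 35116 windows hold. GCLM held 1 match and TXNRD1 held 2 in the first window and 1 in the second, while those of GCLC, TXN, NQO1, MAFG and SRXN1 held none. The AP-1 element TGANTCA, held by 7.71% of windows, was in none of the 8. Capitals mark the core in the windows of GCLM at chr1:93909381-93909680 on the minus strand and of TXNRD1 at chr12:104286782-104287081 on the plus strand. The MAFG window at chr17:81927686-81927985 on the minus strand is shown beside them because this gene rose without a match.
GCLM: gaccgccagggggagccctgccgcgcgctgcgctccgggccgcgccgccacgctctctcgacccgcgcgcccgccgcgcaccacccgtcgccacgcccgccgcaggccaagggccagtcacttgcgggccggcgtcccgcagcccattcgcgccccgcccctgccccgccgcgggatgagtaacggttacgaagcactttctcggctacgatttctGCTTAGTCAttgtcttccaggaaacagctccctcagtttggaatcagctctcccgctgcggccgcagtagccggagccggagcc
TXNRD1: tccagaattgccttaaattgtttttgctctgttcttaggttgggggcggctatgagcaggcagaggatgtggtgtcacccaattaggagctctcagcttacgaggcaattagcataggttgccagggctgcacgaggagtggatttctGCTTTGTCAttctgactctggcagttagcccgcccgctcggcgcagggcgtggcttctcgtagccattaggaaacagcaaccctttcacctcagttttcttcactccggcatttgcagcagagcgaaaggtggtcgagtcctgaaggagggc
MAFG: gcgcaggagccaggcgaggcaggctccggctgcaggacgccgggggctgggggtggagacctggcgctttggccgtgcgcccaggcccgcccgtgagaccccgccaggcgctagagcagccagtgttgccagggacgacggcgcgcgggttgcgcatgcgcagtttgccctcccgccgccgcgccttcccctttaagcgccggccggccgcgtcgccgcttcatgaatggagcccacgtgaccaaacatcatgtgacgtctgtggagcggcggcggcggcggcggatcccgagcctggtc

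Counted from the annotated start along the gene, the GCLM core begins at position −34 and that of TXNRD1 at −102, both on the strand opposite to the gene. GCLM, which holds the core, was at 0.22 in cotreated cells and did not pass, TXNRD1, which also holds it, was at −0.16, and MAFG, without it, was at 0.73. A match is only a run of letters, and a window without one says nothing of elements further away.

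Genes with the most similar pattern were sought for 4 members, by Euclidean distance over the 9 replicate log2 ratios. For HMOX1, which lies 0.434 from a profile of zeros, they were CPSF4 at a distance of 0.0932, STN1 at 0.101 and MIPEP at 0.106. NQO1, at 0.844 from zero, was nearest to CYB5RL at 0.177, TEAD2 at 0.178 and TWSG1 at 0.178. GCLM, at 0.473, was nearest to PLOD2 at 0.160, ZNRF2 at 0.162 and BNIP3L at 0.173. TXNRD1, at 0.631, was nearest to PLCB3 at 0.227, HNRNPKP3 at 0.229 and RSU1 at 0.230. The profiles of NQO1 and TXNRD1 lean on replicate 1 of cotreated cells, their largest absolute value, at −0.79 and −0.54. That of HMOX1 leans on replicate 1 of both heteronemin comparisons, at −0.32 and −0.27. Nearness to the genes named for HMOX1, NQO1 and TXNRD1 is thus largely likeness in replicate 1.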

How the data were processed

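The authors deposited 1 log2 ratio for each feature on each array; limma is the tool that the submitters' processing notes name. Which version they ran, and how background and arrays were adjusted, is not given in the sources used here. They were read as treated over control on all 18 arrays, from the array titles and from large changes that kept their sign when the dyes were exchanged. Genes came from the platform annotation: of 45220 features, 31425 had a gene entry and 93 of these had several genes, which left 31332 features of 18334 genes. No value was missing. Features were averaged per gene and then the 2 arrays of a biological replicate, as the series' design text pairs them. In R 4.3.3, limma 3.58.1 took these 9 values per gene and estimated 1 mean for each comparison, with a moderated spread (median residual SD 0.116, 2.73 prior degrees of freedom) and Benjamini-Hochberg adjustment over all genes, two-sided; intervals are at 95%. The fit was tested on simulated data. How bright the spots behind a ratio were is unknown. Each mean rests on 3 biological replicates of 2 arrays, and this small number limits its precision.

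Named were all 10 members, all genes of the 7 lists that passed in a measured comparison, up to 3 per list and heteronemin comparison, and NFE2L2, KEAP1 and BACH1. The members and the lists were chosen with earlier results of these data known. Replicate numbers follow the array order in the design text. Deviations from the group mean correlated between same-numbered replicates of the 2 heteronemin comparisons (r over genes 0.781, 0.626 and 0.622). Replicates 2 and 3 also correlated across numbers (0.479 and 0.555), and replicate 1 against numbers 2 and 3 gave −0.71 to −0.63. Replicate 1 thus stood apart in both comparisons. Deviations from a mean of 3 are tied to each other, so these values cannot decide whether numbers 2 and 3 pair the replicates. With TNFalpha against untreated the correlations of same-numbered replicates were −0.210, 0.031 and −0.095 for heteronemin and −0.326, −0.220 and −0.274 for cotreated cells. For cotreated cells, TNFalpha-treated RNA is the treated sample of one comparison and the control of the other. Whether same-numbered replicates share RNA was not tested. Untreated RNA is the control of 2 comparisons and TNFalpha-treated RNA enters 2, so these share RNA sources. Alternatives were a replicate block, other priors, array weights, scalings, single dyes, single features, separate fits and left-out replicates.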

Additional observations from a re-analysis of the deposited data

How the results depend on the processing

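Under TNFalpha 0 of the 10 genes were called under any of 17 alternatives, and for the difference between the heteronemin comparisons 0 under any of 13. Under heteronemin the count of 1 became 0 with a trended and robust prior and with the comparison fitted alone, 2 with the 18 arrays and the pair as a random block, 2 with arrays scaled to 1 median absolute deviation and 3 with array quality weights; leaving out replicates gave 0 to 3. In cotreated cells it became 0 fitted alone, 3 with the random block, 3 with array quality weights, 2 with scaled arrays and 2 with either dye orientation alone; leaving out replicates gave 0 to 4. The cause of these shifts was not tested. With the replicate number as a block the count was 1 in both heteronemin comparisons and 0 under TNFalpha, and no other call of a named gene changed. MAFG was called in 13 of 17 alternatives under heteronemin, with means of 0.62 to 0.77, and in 14 of 17 in cotreated cells, with means of 0.64 to 0.79. No called value changed sign; values that were not called did so 9 times under heteronemin, 6 times in cotreated cells, 20 times under TNFalpha and 20 times for the difference. All genes called ranged from 0 to 2680 under heteronemin, 0 to 3445 in cotreated cells, 0 to 62 under TNFalpha and 0 to 3 for the difference, against 892, 1200, 0 and 0. A dim signal could not be told from an unchanged one, since ratios carry no intensity.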
